A study of Mus musculus with 4 samples.

Results

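The expression of 10 haematopoietic transcription factors was examined in cultured primary myoblasts of wild type (WT) and Tet2 KO mice. The genes were Spi1, Cebpa, Cebpb, Cebpd, Cebpe, Irf8, Ikzf1, Gfi1, Runx1 and Myb, matched by symbol among the 24445 genes of the deposited table, and all 10 were found. RNA had been sequenced from 4 libraries, 2 of WT and 2 of Tet2 KO, all on the C57BL/6 background. Satellite cells, from which muscle regenerates, had been sorted from the hindlimb by the presence of integrin alpha 7 and CD34 and the absence of CD45, CD11b, CD31 and Sca1, and were grown on collagen until they became MyoD+ myoblasts. The knockout was constitutive and removed exon 3 of Tet2, so every cell of the animal lacked the intact gene, and no Cre driver was involved. The study's methods state young adult males unless noted otherwise, and the labels do not say whether the libraries of a group came from separate animals or cultures. Expression was given as FPKM (fragments per kilobase of transcript, scaled to the number of mapped fragments), with 1 value by the authors for each gene and group. There was therefore no spread between libraries, no test was made, and every difference below is a description of these pooled values.

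These factors bind DNA in the nucleus and set which blood lineage a progenitor enters. Spi1 encodes PU.1, an Ets factor that drives macrophages, granulocytes and B cells. The C/EBP proteins are leucine zipper factors that pair with each other; Cebpa starts granulocyte formation, Cebpe completes it, and Cebpb and Cebpd serve inflammation and fat cell formation in many tissues. Irf8 directs monocytes and dendritic cells and is also induced by interferon. Ikzf1 encodes Ikaros, a zinc finger factor of lymphoid and other blood cells, and Gfi1 is a zinc finger repressor of granulocyte and stem cells. Runx1 is needed for the first blood stem cells and is active in other tissues too, while Myb keeps immature blood cells dividing. By this textbook distribution, Spi1, Cebpe, Irf8, Ikzf1, Gfi1 and Myb were taken as 6 lineage-restricted factors, and Cebpa, Cebpb, Cebpd and Runx1 as 4 broadly expressed ones.

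The cells carried the transcripts of myoblasts in both groups. Myod1 had 313 FPKM in Tet2 KO against 336 FPKM in WT, and Myf5 had 57.4 and 61.8 FPKM. All 8 myoblast markers were lower in Tet2 KO, by the most for Myog, the factor of myoblast differentiation, at 268 against 554 FPKM. The targeted gene, Tet2, had 5.79 FPKM in Tet2 KO against 6.64 FPKM in WT, a value over all exons that does not show the deleted exon separately and so checks nothing about the labels. Of the 6 genes that the sort had used, 2 were past the 2-fold limit defined below, which adds 1 to each FPKM value. Both were leukocyte genes selected against. Ptprc, which encodes CD45, had 5.67 FPKM in Tet2 KO against 1.36 FPKM in WT, and Itgam, which encodes CD11b, had 10.1 and 2.09 FPKM. Of the others, Cd34, a gene selected for, had 6.74 and 3.03 FPKM, more than 2-fold in plain FPKM but short of that limit. Ly6a, which encodes Sca1, had 288 and 278 FPKM. Pecam1 (CD31) and Itga7 were lower in Tet2 KO, at 1.48 and 1.63 FPKM and at 190 and 199 FPKM. A list of 12 pan-leukocyte markers summed to 245 FPKM in Tet2 KO against 82.3 FPKM in WT, with 12 of 12 higher in Tet2 KO and none at 0. Their FPKM ratios ran from 1.86 to 4.41 with a median of 4.07. Of the other blood lineages, 3 marker lists were near 0, with summed levels of 0.331 and 0.205 FPKM for 4 B cell genes, 0.556 and 0.303 FPKM for 5 erythroid genes, and 1.23 and 1.04 FPKM for 6 T cell genes, of which Lck made up most. A list of 5 mast cell and basophil genes summed to 66.6 and 64.2 FPKM, nearly all of it from Mcpt8, a granule protease gene of basophils, while the other 4 were each below 0.6 FPKM. In bulk RNA, more cells of a type and more RNA per cell cannot be told apart.

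Ratios are given below as Tet2 KO over WT on 2 scales. The first is the plain ratio of the FPKM values. The second is log2((Tet2 KO FPKM + 1) / (WT FPKM + 1)), in which adding a pseudocount of 1 shrinks the ratio of scarce genes. A gene was counted as past the limit when its mean FPKM over both groups was at least 1 and this log2 value was at least 1 in size, that is 2-fold. Among the 11692 genes that reached the mean FPKM of 1, 2.08% were past the limit with a higher level in Tet2 KO and 1.21% with a lower level, and the median log2 value was -0.0044. Of the 10 factors, 8 reached that mean, 2 were past the limit with a higher level, and 0 with a lower level. By any amount, 7 of these 8 were higher in Tet2 KO, as were 48.8% of all genes at the filter. Ikzf1 and Gfi1 stayed below the mean FPKM of 1. The filter acts on the mean of both groups, so a gene low in WT enters it through its Tet2 KO level.

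**Figure D1:**
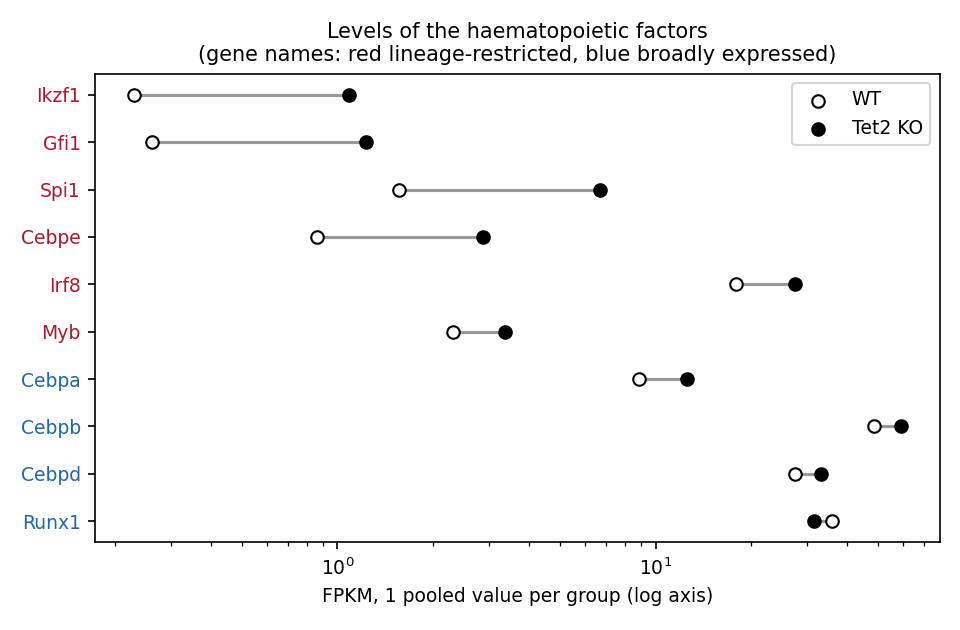
FPKM of each factor (log axis), 1 pooled value per group, with WT as open and Tet2 KO as filled circles joined by a line. The lines of Ikzf1, Gfi1, Spi1 and Cebpe are long, those of the blue broadly expressed genes are short, and Runx1 alone lies lower in Tet2 KO.

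Spi1 and Cebpe were the 2 factors past the limit. Spi1, on the plus strand of chromosome 2 (90936835 to 90955916, mm9), was at 6.71 FPKM in Tet2 KO against 1.57 FPKM in WT. Its FPKM ratio was 4.29 and its log2 value with the pseudocount was 1.59, higher than that of 99.3% of the genes at the filter. Spi1 moved from the 55.2 percentile of all levels in WT to the 66.8 percentile in Tet2 KO. These percentiles rank all 24445 genes, of which only 11692 reached the mean FPKM of 1, so among expressed genes Spi1 ranked lower. Cebpe, on the minus strand of chromosome 14 (55329200 to 55331011), was at 2.87 FPKM in Tet2 KO against 0.864 FPKM in WT. Its FPKM ratio was 3.32 and its log2 value was 1.05, just above the limit. Its WT level was below 1 FPKM, so Cebpe reached the filter only through its Tet2 KO level. With a limit of 3-fold in place of 2-fold Cebpe was no longer past it while Spi1 was, and with a minimum mean FPKM of 5 neither gene was counted, since their means were 4.14 and 1.87 FPKM. Among genes with a mean FPKM from 1 to under 10, the range in which both lie, 3.69% were past the limit with a higher level and 1.44% with a lower level.

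Ikzf1 and Gfi1 had the 2 largest plain ratios of the 10 factors, at levels near 1 FPKM or lower. Ikzf1 had 1.09 FPKM in Tet2 KO against 0.229 FPKM in WT, an FPKM ratio of 4.77. Gfi1 had 1.23 FPKM in Tet2 KO against 0.261 FPKM in WT, an FPKM ratio of 4.71. With the pseudocount their log2 values shrank to 0.77 and 0.82, against 2.25 and 2.24 without it. Of the 989 genes with a mean FPKM from 0.5 to under 1, 13.4% had an FPKM ratio of at least 2, and 4.65% one of at least 4. Genes listed at 0 in WT were included. The share of more abundant genes with such plain ratios was not computed. Ikzf1 lies on chromosome 11 from 11585928 to 11672929, and Gfi1 on chromosome 5 from 108145674 to 108154825.

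The remaining lineage-restricted factors, Irf8 and Myb, differed less. Irf8 had 27.4 FPKM in Tet2 KO against 18.0 FPKM in WT, an FPKM ratio of 1.53 and a log2 value of 0.59. It was the most abundant of the 6 lineage-restricted genes in either group. Its 9 exons lie on chromosome 8, between 123260258 and 123280592. Myb, on chromosome 10 (20844736 to 20880790), was at 3.37 FPKM in Tet2 KO against 2.31 FPKM in WT, a ratio of 1.46. A limit of 1.5-fold was passed by 3.72% of the genes at the filter with a higher level and by 2.89% with a lower level. At that limit Irf8 was counted, by a very small margin, and Myb was not.

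The 4 broadly expressed factors were abundant in both groups, and their ratios lay closer to 1. Cebpb had 59.3 FPKM in Tet2 KO against 48.6 FPKM in WT, the highest level of the 10 in either group, and a ratio of 1.22. Cebpd had 33.2 and 27.4 FPKM, a ratio of 1.21, over a deposited locus that also covers neighbouring genes. Cebpa, which in myeloid progenitors acts before Cebpe, had 12.6 and 8.87 FPKM, a ratio of 1.42. Runx1 was the 1 factor with a lower level in Tet2 KO, at 31.4 FPKM against 35.8 FPKM in WT, a ratio of 0.876 and a log2 value of -0.19. None of these 4 genes was past the limit of 2-fold or of 1.5-fold. Among genes whose mean FPKM reached 10, as theirs did, 0.958% were past the 2-fold limit with a higher level and 1.06% with a lower level.

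**Figure D2:**
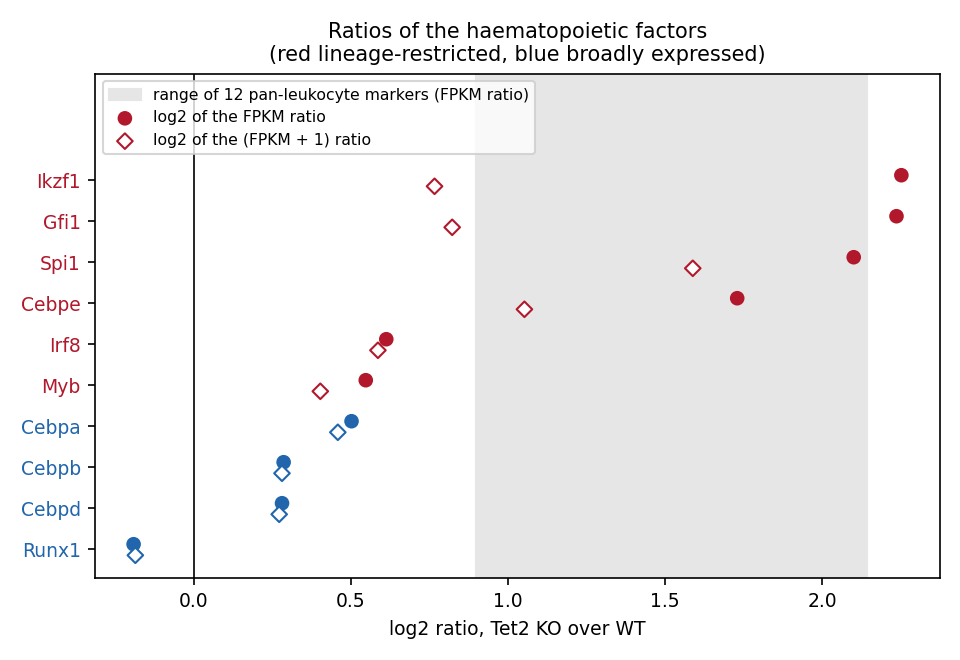
The log2 ratio of Tet2 KO over WT for each factor, from the plain FPKM values (circles) and with a pseudocount of 1 (diamonds), with the range of 12 pan-leukocyte markers in grey (plain FPKM ratios). Without the pseudocount Spi1 and Cebpe lie inside the grey range, Ikzf1 and Gfi1 lie above it, and the other 6 factors lie below it.

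The 2 classes were compared on both scales. Across all 6 lineage-restricted factors the FPKM ratio ran from 1.46 to 4.77 with a median of 3.80, and across the 4 broadly expressed factors it ran from 0.876 to 1.42 with a median of 1.22. The ranges did not overlap, by the small gap between Cebpa at 1.42 and Myb at 1.46. On the log2 scale with the pseudocount, the median was 0.82 over the 4 lineage-restricted factors at the filter and 0.28 over the broadly expressed ones. Cebpe was among those 4 only through its Tet2 KO level. With no filter the median over all 6 lineage-restricted factors was 0.79, and that of the broadly expressed ones was again 0.28. There the classes overlapped, with Myb at 0.40 below Cebpa at 0.46. Level and class went together, since 5 of the 6 lineage-restricted genes were below every broadly expressed gene in WT and Irf8 was the exception. Irf8 was also the lineage-restricted gene that came nearest, with Myb, to the broadly expressed ones in its ratio.

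**Figure D3:**
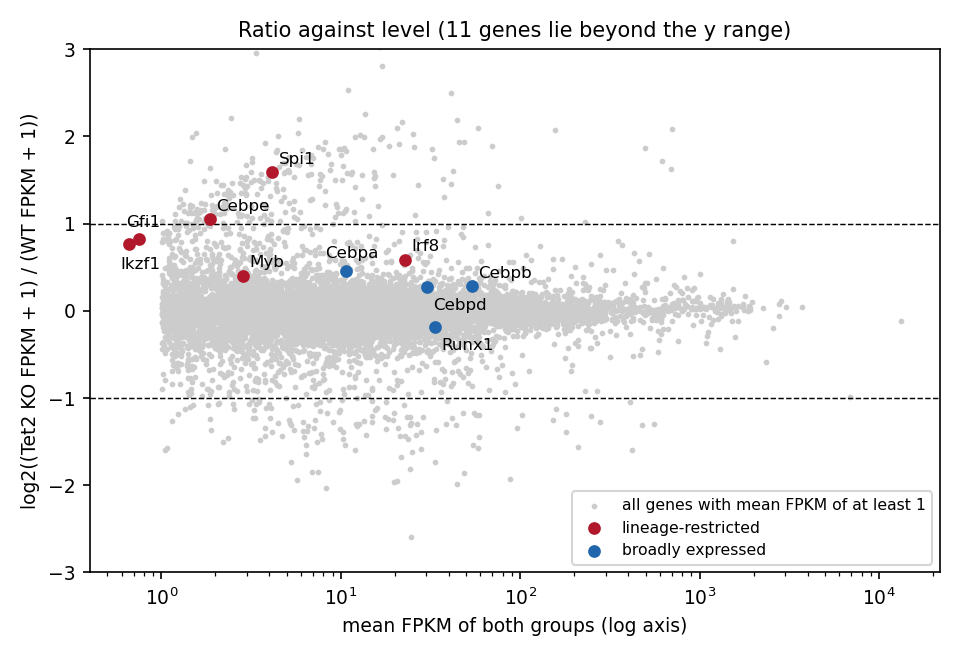
The log2 ratio with a pseudocount of 1 against the mean FPKM of both groups (log axis) for the genes at the filter (grey) and the 10 factors, with dashed lines at 2-fold; 11 genes lie beyond the plotted range. Spi1 and Cebpe lie above the upper line, Ikzf1 and Gfi1 lie left of the grey cloud, below a mean FPKM of 1, and the broadly expressed factors lie inside the cloud.

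The order of abundance changed little between the groups. In WT it ran Cebpb, Runx1, Cebpd, Irf8, Cebpa, Myb, Spi1, Cebpe, Gfi1 and Ikzf1. In Tet2 KO the order differed in 2 places, as Cebpd stood above Runx1 and Spi1 stood above Myb. Without values per library it cannot be said which neighbours in this order differ beyond their spread. The level of Spi1 relative to Cebpa, whose proteins act against each other in granulocyte and macrophage fate, was 0.534 in Tet2 KO and 0.176 in WT. The level of Irf8 relative to Spi1, its partner on composite sites, was 4.09 in Tet2 KO and 11.5 in WT.

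The levels were also set beside those of the leukocyte markers, which rescales the ratios given above by 1 common value and adds no further measurement. The level of Spi1 per unit of Ptprc was 1.18 in Tet2 KO and 1.15 in WT, that of Gfi1 was 0.217 and 0.192, and that of Ikzf1 was 0.192 and 0.169. Cebpe per unit of Ptprc was 0.506 in Tet2 KO and 0.637 in WT. Irf8 per unit of Ptprc was 4.85 in Tet2 KO and 13.2 in WT, and Myb was 0.596 and 1.70. For Cebpb the values were 10.5 and 35.8, and for Runx1 they were 5.54 and 26.4. Relative to the median ratio of the 12 pan-leukocyte markers, the ratio of Spi1 was 1.05, of Gfi1 1.16, of Ikzf1 1.17 and of Cebpe 0.815, while the other 6 factors lay between 0.215 and 0.376. On this scale the lineage-restricted Irf8, at 0.376, and Myb, at 0.359, lay beside the broadly expressed Cebpa, at 0.348. With the pseudocount of 1, the log2 values of the 12 markers ran from 0.88 to 1.98. Spi1 at 1.59 and Cebpe at 1.05 lay within that range, while Ikzf1 at 0.77 and Gfi1 at 0.82 lay below it. The part of leukocyte transcripts in the levels of these factors was not tested.

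Relatives of the factors were examined in 6 family lists, which held 34 other genes, of which 23 reached the mean FPKM of 1. Of these, 2 were past the limit with a higher level and 0 with a lower level, and their median log2 value was 0.0013. Fli1, an Ets factor of megakaryocytes, endothelium and other blood cells, had 2.47 FPKM in Tet2 KO against 0.664 FPKM in WT, a log2 value of 1.06. Like Cebpe, Fli1 reached the filter only through its Tet2 KO level. Irf5, a factor of macrophage activation, had 5.31 and 2.15 FPKM and lay on the limit itself. Of the other Ets genes, Ets1, at 32.0 and 31.0 FPKM, and Elf2, at 18.1 FPKM in both groups, were nearly level. Etv6, a repressor needed by blood stem cells, had 9.57 and 7.26 FPKM, the next highest log2 value of the Ets genes at 0.36, and Elf1, Elf4 and Ets2 lay between -0.16 and 0.27. Irf3 and Irf9 carry the interferon response in most cells. Both were nearly level too, with 19.9 and 21.3 FPKM and with 30.7 and 31.3 FPKM. Irf1, the most abundant of the family, had 202 FPKM in Tet2 KO against 182 FPKM in WT, and Irf2 and Irf7 had log2 values of 0.20 and 0.10. Cebpg and Cebpz had log2 values of -0.08 and 0.0013, and Ddit3, a C/EBP relative of the stress response, had -0.06. Ikzf2 was lower, at 1.10 and 1.56 FPKM, Ikzf5 was higher, at 11.1 and 9.84 FPKM, and the cell cycle relatives of Myb, Mybl1 and Mybl2, had log2 values of -0.08 and 0.09. The Runx relatives Runx2, at 11.5 and 11.7 FPKM, and Cbfb, which encodes the shared partner subunit of Runx proteins, at 93.8 and 101 FPKM, were lower in Tet2 KO by small amounts, as were Runx1 and the corepressor gene Cbfa2t2 (8.37 and 9.13 FPKM).

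The share of each factor in its own family was computed from the summed FPKM, which is per length. Spi1 made up 6.49% of the summed level of 11 Ets genes in Tet2 KO and 1.66% in WT. Ikzf1 made up 8.12% of the 5 Ikaros genes in Tet2 KO and 1.95% in WT, where Ikzf5 was the main member. Cebpe made up 2.31% of 5 C/EBP genes in Tet2 KO and 0.840% in WT, while Cebpb held 47.8% and 47.3%. Irf8 held 8.99% of the 9 Irf genes in Tet2 KO and 6.58% in WT. Runx1 held 72.9% and 75.3% of the 3 Runx genes, and Myb 10.2% and 7.46% of the 3 Myb genes. Gfi1, despite its ratio of 4.71, held 97.3% in Tet2 KO and 95.9% in WT, since Gfi1b, the other gene of its family, was at 0.0342 and 0.0112 FPKM.

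Factors of other blood lineages ranged from nearly absent to abundant. In 3 lists of erythroid and stem cell, lymphoid, and macrophage and dendritic cell factors, 20 of 38 genes reached the mean FPKM of 1, 2 were past the limit with a higher level and 0 with a lower level. The 2 genes were Tfec, a macrophage relative of Mitf, with 5.23 FPKM in Tet2 KO against 1.07 FPKM in WT, and Lmo2, an adaptor of blood stem cell complexes, with 5.80 and 2.34 FPKM. Nfe2, at 3.41 and 1.28 FPKM, and Lyl1, at 1.68 and 0.489 FPKM, came close to the limit. Gata1, the main erythroid factor, had 0.042 FPKM in Tet2 KO against 0.0312 FPKM in WT, and the B cell factor Pax5 had 0.0534 and 0.034 FPKM. Zeb2 and Id2, which myoblasts also make, had log2 values of 0.06 and 0.19. Gata2, a stem and mast cell factor, had 9.61 and 8.37 FPKM. The most abundant gene was Hoxa9 in the erythroid and stem cell list, at 14.7 and 13.9 FPKM, and Tcf3 in the lymphoid list, at 43.7 and 41.2 FPKM.

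Myeloid effector genes were examined in 5 lists. These held receptors, NADPH oxidase subunits, primary granule genes, secondary granule and related myeloid genes, and macrophage genes. The lists came from earlier views of these data and so are no independent support. Whether the factors drive these genes was not tested. Of 52 genes in the table, 46 reached the mean FPKM of 1, 37 were past the limit with a higher level and 0 with a lower level, and their median log2 value was 1.58. Csf1r, a receptor gene that PU.1 is known to activate, had 8.25 FPKM in Tet2 KO against 2.06 FPKM in WT. Csf3r, a receptor gene linked to Cebpa, had 0.83 and 0.334 FPKM, below the mean FPKM of 1. Of the 6 receptor genes past the limit, the log2 values ran from 1.49 for Csf2rb to 1.85 for the Fc receptor gene Fcgr3, which at 24.3 and 5.98 FPKM was also the most abundant. All 6 NADPH oxidase subunit genes were past the limit, from 1.30 for Cyba to 1.79 for Ncf1 on the log2 scale. Of the granule genes, Ltf, a secondary granule gene that depends on Cebpe, had 71.0 and 11.7 FPKM and the highest log2 value of the 5 lists, 2.50. The 5 primary granule genes lay between 1.69 for Mpo and 2.17 for Ctsg, and Prtn3 was the most abundant of them at 40.8 and 10.4 FPKM. The secondary granule list also held genes whose products are not granule proteins, such as the receptor gene Ltb4r1 and S100a8, which encodes a cytosolic protein. Its 10 genes past the limit began at 1.23, for Ltb4r1. S100a8 was the most abundant, at 941 FPKM in Tet2 KO against 285 FPKM in WT. The macrophage genes past the limit ran from 1.01 for Mrc1 to 2.07 for Lyz2, the lysozyme gene, at 253 and 59.5 FPKM. The macrophage gene Lgmn, at 34.95 and 37.4 FPKM, and the receptor gene Tlr4, at 5.47 and 5.62 FPKM, were the 2 genes at the filter with a lower level in Tet2 KO.

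The promoter sequences of the factors are shown as background, since CpG pairs, on whose methylated cytosines Tet2 acts, differ widely in number among them. No methylation value was used here. Whether Tet2 acts at these promoters, or whether CpG number goes with the ratios, was not tested. RefSeq promoter entries (GRCm38.p6) matched 7 of the 10 factors, with 11 transcription starts. Spi1, Cebpd and Cebpe had no entry. Below are the 250 bases before the start, 5′ to 3′ on the strand that the RefSeq table gives, with CpG pairs in capitals, for Ikzf1 and Gfi1, which had the largest ratios, and for Cebpb and both starts of Runx1, which differed little. The bases after the start matched an annotated transcript in the sense direction for Ikzf1, Cebpb and Runx1, and were not found in one for Gfi1, whose orientation thus rests on the RefSeq table alone.
Ikzf1 (chr11:11685675-11685924, plus strand): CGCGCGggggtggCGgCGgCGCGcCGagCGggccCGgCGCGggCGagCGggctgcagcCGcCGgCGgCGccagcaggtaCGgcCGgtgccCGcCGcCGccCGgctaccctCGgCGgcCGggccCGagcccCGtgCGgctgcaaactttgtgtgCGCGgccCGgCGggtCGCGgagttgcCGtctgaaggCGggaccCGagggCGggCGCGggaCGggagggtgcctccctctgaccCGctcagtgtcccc
Gfi1 (chr5:107725806-107726055, minus strand): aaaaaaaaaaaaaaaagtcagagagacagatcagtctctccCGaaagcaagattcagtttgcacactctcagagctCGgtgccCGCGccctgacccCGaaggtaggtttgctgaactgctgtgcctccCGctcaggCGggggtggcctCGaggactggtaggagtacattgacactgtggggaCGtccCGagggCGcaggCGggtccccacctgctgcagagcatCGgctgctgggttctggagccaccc
Cebpb (chr2:167688665-167688914, plus strand): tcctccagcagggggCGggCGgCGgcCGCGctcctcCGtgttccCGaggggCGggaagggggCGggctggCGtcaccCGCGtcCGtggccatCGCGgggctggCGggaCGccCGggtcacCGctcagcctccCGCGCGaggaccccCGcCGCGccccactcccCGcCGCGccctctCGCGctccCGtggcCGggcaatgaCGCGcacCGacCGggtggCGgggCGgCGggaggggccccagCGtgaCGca
Runx1, distal start (chr16:92826075-92826324, minus strand): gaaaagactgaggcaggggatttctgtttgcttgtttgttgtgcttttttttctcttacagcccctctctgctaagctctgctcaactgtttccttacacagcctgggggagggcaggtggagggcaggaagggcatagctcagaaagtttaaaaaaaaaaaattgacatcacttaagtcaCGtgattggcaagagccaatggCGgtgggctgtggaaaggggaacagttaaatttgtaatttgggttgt
Runx1, proximal start (chr16:92697330-92697579, minus strand): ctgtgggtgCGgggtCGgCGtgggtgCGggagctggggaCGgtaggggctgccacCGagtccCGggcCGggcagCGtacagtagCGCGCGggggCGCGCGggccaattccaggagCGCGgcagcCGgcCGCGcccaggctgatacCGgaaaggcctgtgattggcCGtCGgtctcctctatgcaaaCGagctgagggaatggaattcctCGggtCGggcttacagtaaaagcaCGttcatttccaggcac

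The window of Ikzf1 held 44 CpG pairs, more than 99.5% of the 32851 windows of the same length, whose median was 6. A second annotated start of Ikzf1 had 1 CpG pair. The Gfi1 window held 13, and that of a second Gfi1 start held 9. Cebpb held 41, Myb 40, Cebpa 22 and the first start of Irf8 29. The distal start of Runx1 held 2 and the proximal start 27.

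The same windows were searched on both strands for 5 short motifs. GAGGAA, a core of Ets sites such as those of PU.1, occurred in 1 of the 11 windows, the proximal start of Runx1, and in 23.3% of all windows. TTGCNNAA, a C/EBP motif, occurred in 1 of the 11, the Gfi1 window shown, and in 9.56% of all windows. TGTGGT, a Runx motif, occurred in 0 of the 11 and in 14.0% of all windows. An Irf motif, GAAA followed after any 2 bases by GAAA, occurred in 0 of the 11 and in 2.98% of all windows. CAGCTG, the E box of MyoD, occurred in 0 of the 11 and in 4271 of the 32851 windows. A match here is a description of letters.

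Some of these genes share bases with other genes, and the TruSeq kit used does not mark strand. Cebpb shares 312 exon bases, 20.7% of its own, with Tmem189 on the opposite strand, which had 24.0 FPKM in Tet2 KO against 29.5 FPKM in WT. Myb shares 491 exon bases with the noncoding gene Gm16786, Gfi1 shares 3.11% with A430072P03Rik and Runx1 1.36% with Gm16801, all on the opposite strand. The locus deposited for Cebpd spans 259566 bases on chromosome 16, while the annotated gene ends at 15888559, and the rest covers 2310008H04Rik and 3 further annotated genes (AC113329.1, Gm10121 and n-R5s31). The FPKM values and the ratio of 1.21 printed for Cebpd may therefore include reads of these neighbours, which was not tested. The other 6 factors share no exon base with another gene in the annotation used.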

How the data were processed

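RNA libraries of 2 WT and 2 Tet2 KO samples were grouped by the genotype in the labels. Per the study's methods and the submitters' processing notes, the authors checked reads with FastQC, trimmed them, aligned them to mm9 with TopHat2 2.0.13 and estimated FPKM with Cuffdiff 2.2.1. The gene annotation and the way libraries of a group were combined are not given in the sources used here. The deposited table holds 1 FPKM value per gene and group, used here as the authors' value with neither SD nor n. Depth is unknown. Its log2 ratios, test statistics, p-values and q-values are the authors' own comparison and were not used, so no test was made. The factors and gene lists were chosen with earlier results of these data known.

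Ratios were computed in Python 3.11.15 with numpy 2.4.6 and pandas 2.3.3, with a pseudocount of 1, a minimum mean FPKM of 1 and a 2-fold limit, and the counting was tested on simulated data. Named genes are the 10 factors, Tet2, relatives in the 6 family lists, the genes past the limit with the largest and smallest ratio and the most abundant gene of each other list, and markers. Csf1r, Csf3r, Gata1, Gata2, Pax5, Zeb2, Nfe2, Lyl1, Lgmn and Tlr4, and Ptx3, Cp, Saa1, Orm1, Orm2, Fabp4, Pparg and Adipoq in the closing section, were chosen after their values were seen. The deposited mm9 positions are printed 1-based. Exons and strands came from GENCODE vM1 of the same build, where Spi1 was matched through its older name Sfpi1.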

Additional observations from a re-analysis of the deposited data

How the results depend on the processing

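No paired analysis was possible because each group has a single pooled FPKM value, and for the same reason no library could be left out. A joint alternative, no pseudocount with a minimum mean FPKM of 0.5, and the move of Cebpa between classes were chosen after seeing the data. The count of 2 factors past the limit became 1 at a 3-fold limit, 0 at a minimum mean FPKM of 5 and 4 under that joint alternative, which admits Ikzf1 and Gfi1. The median of the lineage-restricted factors moved from 0.82 to 1.12 with a pseudocount of 0.1, 1.17 without one and 1.92 under the joint alternative. It fell to 0.79 at a minimum mean FPKM of 0.5 and also with no filter. At a minimum of 5, where Irf8 alone was left, it was 0.59. With Cebpa counted in the class it was 0.59 as well. The median of the broadly expressed factors stayed between 0.27 and 0.28. At a 3-fold limit the pan-leukocyte median of 1.54 fell short, and the genes past the limit went from 10 to 5 of that list and from 48 to 25 of the related lists together (31 at a minimum mean FPKM of 5). With no filter the medians of the myeloid receptors and acute phase genes came to 0.72 and 0.98, below the limit. Medians that changed sign were those of the Ikaros list, from -0.07 to 0.16 at a minimum mean FPKM of 0.5 or 5, 0.029 with no filter and 0.17 under the joint alternative; of the lymphoid factors, from 0.01 to -0.0035 without a pseudocount, also with a minimum of 0.5, and -0.0014 with 0.1; of the adipocyte list, to -3.43e-05 with no filter; and of the mast cell list, to -0.075 with no filter. Tet2 stayed between -0.20 and -0.17. Depth is unknown, which limits Ikzf1, Gfi1 and other scarce transcripts most.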

Other observations

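Of 15 acute phase and chemokine genes taken as responsive to C/EBP factors, 10 reached a mean FPKM of 1. Of these, 7 were past the limit with a higher level and 0 with a lower level. Ptx3, a soluble pattern receptor, had 17.3 FPKM in Tet2 KO against 4.12 FPKM in WT, and Lcn2 had 16.9 and 3.91 FPKM. Ccl2, the most abundant, had 183 and 121 FPKM, and Cp was lower, at 5.55 and 6.53 FPKM. The liver genes Saa1, Orm1 and Orm2 were below 0.3 FPKM in both groups.

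Cebpa and Cebpb also drive fat cell formation. Of 8 adipocyte genes, 3 reached a mean FPKM of 1, and Cd36, a fatty acid carrier that macrophages make too, was past the limit at 7.35 and 2.16 FPKM. Fabp4 had 2.59 FPKM in Tet2 KO against 3.19 FPKM in WT, Pparg had 0.841 and 0.822 FPKM, and Adipoq was listed at 0 in both groups. A list of 6 fibroblast markers held 5 genes at the filter, all of them higher in Tet2 KO and 0 past the limit. Their log2 values had a median of 0.50, from 0.05 for Ly6a up to 0.95 for Dcn, at 7.04 and 3.15 FPKM. Summed over the list, the level was 316 FPKM (Tet2 KO) against 293 FPKM (WT), mostly from Ly6a. Mcpt8 had 65.9 FPKM in Tet2 KO against 62.9 FPKM in WT.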
